A study of Mus musculus with 24 samples.

Results

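The FOXP1 binding sites compared here were the peaks of 2 ChIP-seq lists from mouse cortex, one from embryonic day E15.5 and the other from E18.5, on chromosomes 1 to 19. The E15.5 list held 63281 such peaks and the E18.5 list 24526, together 87807 of the 315145 peaks in the 6 mouse lists of the series. A peak was placed in the class "both" when it shared at least 1 base with a peak of the other stage, and otherwise in "E15.5 only" or "E18.5 only". The study compared where transcriptional regulators (TRs) encoded by autism-associated genes bind in developing cortex, and the other mouse lists used here are those of ARID1B and of the TR labelled TCF4, which the study's methods name as TCF7L2. Each stage had 2 ChIP libraries made with an antibody against FOXP1 and 2 input libraries of the same sheared chromatin without the antibody, 8 libraries in all, from dissected cortex of embryos labelled WT.

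FOXP1 is a forkhead TR that acts as a dimer, mostly as a repressor, and joins chromatin with the NuRD complex, a remodelling and deacetylase complex. It is made in projection neurons of the cortex and in the striatal projection neurons beneath it, where its loss is linked to autism and to language disorder. Between the stages the cortex passes from the main period of neuron production to the start of glial production. Both lists came from whole tissue, so a site lost from some cells and a site carried by fewer cells cannot be told apart.

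The libraries of a stage were merged before peaks were called, so each stage is 1 list and no difference between stages has a replicate check. Intervals in brackets are 95% Wilson intervals of a share and cover counting error only. The lists also differed in depth. The background that the caller used corresponded to 6.90 ChIP reads over a base in the E15.5 list and to 5.01 in the E18.5 list. The lowest E15.5 peak stood at 2.61 times the background and the lowest E18.5 peak at 3.99 times, so a weak site could enter the first list and not the second. In the E18.5 list the signal had also been scaled down, so that 1 ChIP read counted as 0.561. For these reasons levels were compared by rank within each list, and fold enrichments (the reads at the summit plus 1, over the background plus 1) are given beside the ranks and were not compared across stages.

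Sequences of 3 kinds of site carry the comparison, and each is the 200 bp around a summit, read 5′ to 3′ from the + strand of GRCm38. The first are the highest distal peaks, that is peaks outside promoters, that held the forkhead core TGTTTAC on either strand (in capitals, GTAAACA when read on the other strand). Those from the E15.5-only class were chosen to show sites that the E18.5 list lacked, in 2 intergenic stretches, and those from the class of both stages to show sites that it kept, in an intron of Cacng4 (a calcium channel subunit gene) and between genes. The Cacng4 window is made of imperfect copies of a short unit, and its core lies within this repeat. The unit is longer than the 4 bases to which the search for simple runs, described below, was limited.
E15.5 only, chr4:148371627-148371826: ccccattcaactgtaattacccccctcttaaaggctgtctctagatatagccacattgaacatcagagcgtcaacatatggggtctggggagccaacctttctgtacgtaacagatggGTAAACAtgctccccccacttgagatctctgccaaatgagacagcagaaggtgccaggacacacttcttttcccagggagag
E15.5 only, chr2:166360963-166361162: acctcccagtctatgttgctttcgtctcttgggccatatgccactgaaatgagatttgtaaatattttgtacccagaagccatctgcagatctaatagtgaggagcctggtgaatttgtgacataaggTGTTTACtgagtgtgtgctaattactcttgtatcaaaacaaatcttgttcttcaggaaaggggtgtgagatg
Both stages, Cacng4 intron, chr11:107784286-107784485: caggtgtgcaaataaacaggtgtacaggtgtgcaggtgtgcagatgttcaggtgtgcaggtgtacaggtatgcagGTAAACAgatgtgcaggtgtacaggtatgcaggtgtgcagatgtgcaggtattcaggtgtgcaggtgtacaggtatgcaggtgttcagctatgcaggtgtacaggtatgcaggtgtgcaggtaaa
Both stages, chr14:65343917-65344116: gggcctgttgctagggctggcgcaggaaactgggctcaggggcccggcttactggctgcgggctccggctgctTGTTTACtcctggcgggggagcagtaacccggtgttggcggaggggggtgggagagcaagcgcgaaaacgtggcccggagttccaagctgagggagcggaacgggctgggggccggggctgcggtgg
The second are the highest E18.5-only peaks that held an uninterrupted run of a short repeat, intergenic on chromosome 5 and in an intron of the non-coding gene Gm26708 on chromosome 7. The run, in capitals, has the unit AAC, which reads GTT on the other strand.
E18.5 only, chr5:68360946-68361145: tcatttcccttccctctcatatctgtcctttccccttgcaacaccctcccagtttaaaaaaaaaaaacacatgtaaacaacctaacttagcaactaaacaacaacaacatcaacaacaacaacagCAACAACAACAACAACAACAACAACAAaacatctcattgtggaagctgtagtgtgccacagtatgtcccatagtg
E18.5 only, chr7:84182698-84182897: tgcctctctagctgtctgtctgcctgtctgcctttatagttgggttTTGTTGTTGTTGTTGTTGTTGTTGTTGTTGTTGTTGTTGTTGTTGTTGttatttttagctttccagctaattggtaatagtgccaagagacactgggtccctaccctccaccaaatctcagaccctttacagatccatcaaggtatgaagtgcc
The third are the highest peaks over coding exons of Foxp2 at E18.5 and of Cux1 at E15.5, with bases of the coding exon in capitals.
E18.5 only, Foxp2, chr6:15394616-15394815: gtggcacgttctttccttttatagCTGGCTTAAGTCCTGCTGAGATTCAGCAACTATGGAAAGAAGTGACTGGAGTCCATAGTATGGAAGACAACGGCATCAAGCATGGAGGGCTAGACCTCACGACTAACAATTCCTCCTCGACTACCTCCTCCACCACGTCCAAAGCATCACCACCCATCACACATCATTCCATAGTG
E15.5 only, Cux1, chr5:136326784-136326983: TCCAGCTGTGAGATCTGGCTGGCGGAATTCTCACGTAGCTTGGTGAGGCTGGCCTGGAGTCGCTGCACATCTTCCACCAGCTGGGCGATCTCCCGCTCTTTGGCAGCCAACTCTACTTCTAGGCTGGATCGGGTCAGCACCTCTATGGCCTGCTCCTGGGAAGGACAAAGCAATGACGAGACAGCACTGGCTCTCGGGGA

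Nearly every E18.5 peak lay on an E15.5 peak, and most E15.5 peaks had no E18.5 peak. Of the E18.5 peaks, 23612 (96.3%, 96.0 to 96.5) overlapped an E15.5 peak and 914 did not. Of the E15.5 peaks, 21554 (34.1%, 33.7 to 34.4) overlapped an E18.5 peak and 41727 did not. The edge of the rule moved few peaks, since 779 E15.5-only and 48 E18.5-only peaks lay within 200 bp of a peak of the other stage, and only 91 of 23770 overlapping pairs shared fewer than 50 bases. The share of E15.5 peaks depended on the number of peaks kept, and with only the 24526 highest E15.5 peaks it was 74.9%, against 83.6% of E18.5 peaks.

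The E15.5 peaks missing at E18.5 were mostly the weak ones. Their median fold enrichment was 3.54, against 7.59 for E15.5 peaks shared with E18.5, and their median widths were 336 and 1001 bp. In the highest 10% of the E15.5 list by fold enrichment, 99.9% of peaks overlapped an E18.5 peak, and in the lowest 10% only 1.98% did. The E18.5 list showed no such slope, with 99.1% overlap in its highest 10% and 95.9% in its lowest 10%.

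**Figure D1:**
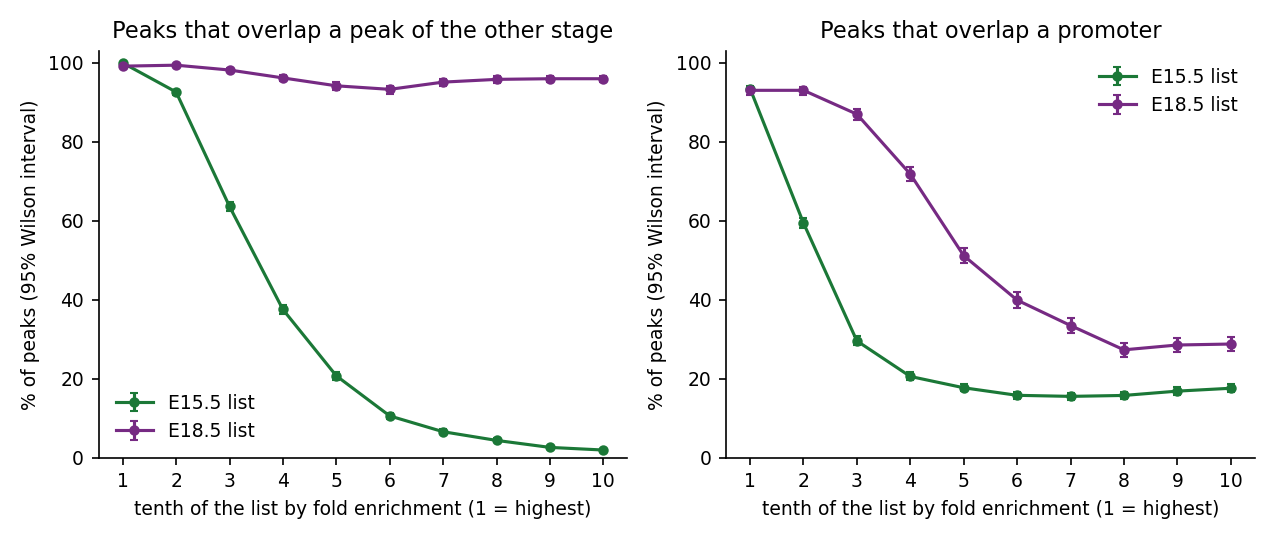
Share of FOXP1 peaks that overlapped a peak of the other stage (left, %) and share that overlapped a promoter (right, %), in 10 equal steps of each list ordered by fold enrichment from the highest (1) to the lowest (10), with E15.5 in green and E18.5 in purple and bars for 95% Wilson intervals. Overlap at E15.5 falls from 99.9% to 1.98% over the steps, whereas at E18.5 it stays between 93.2% and 99.3%.

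The difference in depth limited the heights at which the classes could be compared. Of the 41727 E15.5-only peaks, 21889 stood below the lowest ratio to background at which the E18.5 list held a peak, and 19838 stood at or above it. Among E15.5 peaks of 3.99 to 6 times the background 21.1% overlapped an E18.5 peak, from 6 to 8 times 65.6%, from 8 to 10 times 90.7%, and from 10 to 15 times 99.4%. At 15 times or more, 2 of 3480 peaks had no E18.5 peak. One of these lay at the 3′ end of Tbr1, with its summit in a coding exon (chr2:61811434-61814224, fold enrichment 21.5), and the other in an intron of Tmem132d on chromosome 5 (fold enrichment 19.7). The Tbr1 peak started 149 bp before the exon, as the exon peaks described below do. It was wider than those, however, at 2791 bp, and ran 1789 bp past the exon. It also overlapped a peak in each list of ARID1B and TCF7L2. Distal sites were shared less often than promoter sites of the same height. From 6 to 8 times the background, 84.9% of promoter peaks (83.4 to 86.4) and 57.1% of distal peaks (55.7 to 58.4) overlapped an E18.5 peak. How far the lower depth of the E18.5 list accounts for the difference in numbers was not tested.

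The classes lay in different parts of the genome. A promoter was taken as the 2000 bp upstream of any annotated transcription start site (TSS), and any overlap made a peak a promoter peak. Promoters were under 59.1% of the shared E15.5 peaks and 57.3% of the shared E18.5 peaks, 15.3% of E15.5-only peaks and 7.44% of E18.5-only peaks (5.91 to 9.32). The median distance from the summit to the nearest TSS was 243 bp for shared E15.5 peaks and 10008 bp for E15.5-only peaks. It was 309.5 bp for shared E18.5 peaks and 17270.5 bp for E18.5-only peaks. E15.5-only summits were in introns in 46.2% of cases and between genes in 33.5%, and E18.5-only summits in 41.6% and 46.8%, where introns and intergenic sequence made up 39.2% and 50.4% of chromosomes 1 to 19. The whole lists differed in promoter share, 30.2% at E15.5 and 55.4% at E18.5, but the 24526 highest E15.5 peaks were promoter peaks in 51.8% of cases. The order of the E15.5-only and E18.5-only classes depended on the rule. The E18.5-only class had the higher promoter share, 20.7% against 13.6%, with equal numbers of peaks. It was also higher, 49.3% against 17.6%, when a site counted as shared only if the summits lay within 200 bp of each other, with 5001 E18.5 peaks then counted as E18.5 only. With the classes as first set, the E18.5-only share was 7.33% against 15.3% over peaks without a summit in a coding exon, and 14.3% against 15.3% over peaks without a simple run (described below).

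Most E15.5-only sites were also sites of another TR, and most E18.5-only sites were not. An ARID1B or TCF7L2 peak of either stage lay on 96.6% of shared E15.5 peaks and on 80.3% of E15.5-only peaks (79.9 to 80.7), but on 18.2% of E18.5-only peaks. ARID1B, a subunit of the BAF remodelling complex, accounted for most of the overlap of the E15.5-only class, with 66.6% for its E15.5 list and 61.2% for its E18.5 list. TCF7L2, the nuclear effector of Wnt signalling, lay on 24.6% of E15.5-only peaks at E15.5 and on 46.5% at E18.5. These lists differed in length, with 32579 and 52595 TCF7L2 peaks and 70709 and 67787 ARID1B peaks at E15.5 and E18.5. The TCF7L2 share was also higher with its longer E18.5 list among shared E15.5 peaks, 89.9% against 80.9%. How far list length accounts for these shares was not tested. Among E18.5-only peaks the largest overlap with any single list was 12.8%, with ARID1B at E15.5.

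Sequence separated the E18.5-only class from all the others. A run of the unit AAC of at least 20 bases lay in the 200 bp around the summit of 556 of 914 E18.5-only peaks (60.8%, 57.6 to 63.9). The same was found for 32 of 41727 E15.5-only peaks (0.0767%), for 1.13% and 1.23% of the shared peaks of E15.5 and E18.5, and for 187 of 239597 windows spaced every 10 kb over chromosomes 1 to 19 (0.0780%). These 556 peaks lay on all 19 chromosomes, with at most 52 on any of them, 290 of them intergenic and 237 in introns. They were narrow, with a median width of 260 bp and fold enrichments from 3.65 to 11.6, and 4 of the 556 overlapped a peak of ARID1B or TCF7L2.

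FOXP1 peaks lay on AAC runs at both stages, and on more of them at E18.5. Chromosomes 1 to 19 held 10781 such runs, of which 433 (4.02%, 3.66 to 4.40) were under an E15.5 peak and 981 (9.10%, 8.57 to 9.66) under an E18.5 peak, although the E18.5 list was the shorter. Among the 1485 runs of 40 bases or more, 10.3% were under an E15.5 peak and 30.6% under an E18.5 peak. In 292 sites with such a run that were called at both stages, the median percentile of fold enrichment among shared sites was 8.03 in the E15.5 list and 69.2 in the E18.5 list, and the percentile was higher at E18.5 in 285 of them. The other 21110 shared sites had medians of 49.99 and 49.5. The lists of the other TRs held few summits at AAC runs, 9 and 10 for ARID1B and 3 and 5 for TCF7L2 at the 2 stages, against 275 and 847 for FOXP1. The caller used 1 constant background for the whole genome, coverage of these repeats in the input libraries was not analysed here, and whether the peaks on them mark binding of FOXP1 was not tested.

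**Figure D2:**
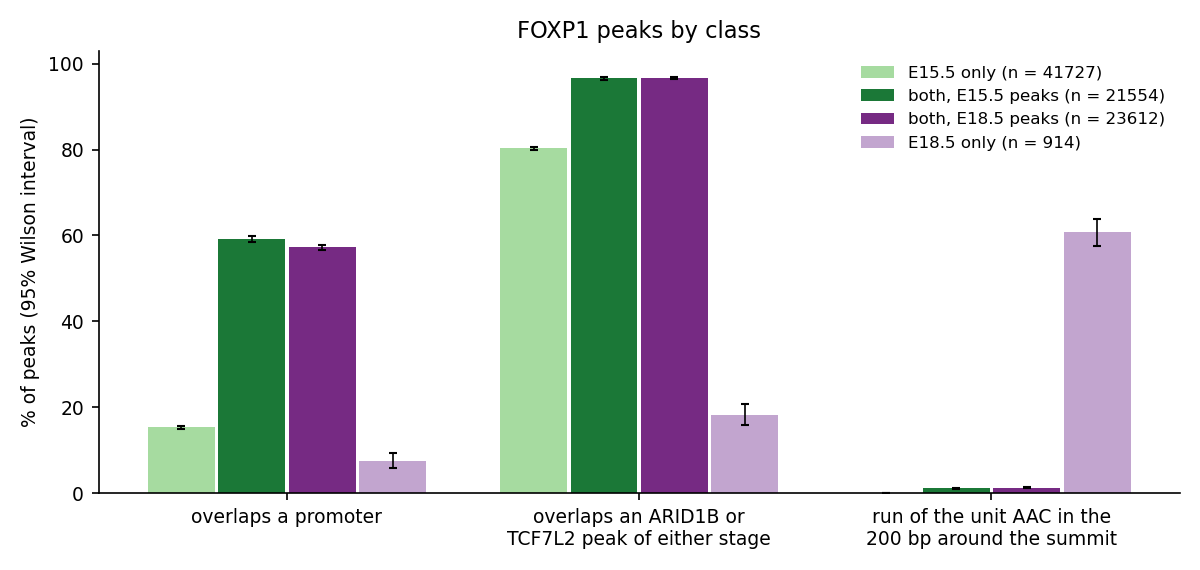
Share of FOXP1 peaks of each class (%, bars with 95% Wilson intervals) that overlapped a promoter, that overlapped an ARID1B or TCF7L2 peak of either stage, and that held an AAC run in the 200 bp around the summit. AAC runs mark 60.8% of the 914 E18.5-only peaks and at most 1.23% of any other class, and under the rule of 1 shared base the E18.5-only class has the lowest share in both other features, an order that turned for promoters with equal numbers of peaks and with matched summits. It also turned for promoters when peaks with coding-exon summits or simple runs were left out of both lists before the classes were set.

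Outside uninterrupted runs and 2 genes, E18.5-only sites were few and weak. Interrupted repeats were not removed, and the second highest peak left, intergenic on chromosome 1, held one of AAC. Without a simple run and outside Foxp2 and Dixdc1, 286 E18.5-only peaks remained, with a median fold enrichment of 4.24 and a highest of 10.1. Of these, 52.8% overlapped a peak of another TR and 13.6% a promoter. Leaving out all peaks with a simple run from both lists raised the overlap of E18.5 peaks from 96.3% to 97.6%.

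Distal sequences of the E15.5-only and shared classes differed in the shares of windows with short motifs. The bHLH E-box CAGATG, the site of proneural factors, was in 27.2% of distal E15.5-only windows (26.7 to 27.6) and 27.0% of distal shared E15.5 windows (26.1 to 27.9). It was in 31.1% (30.4 to 31.8) of the distal E15.5-only windows at or above the lowest ratio to background of the E18.5 list. The nuclear factor I motif TTGGCA was in 21.02% (20.6 to 21.5) of distal E15.5-only windows, 23.3% (22.7 to 24.0) of those at or above that ratio and 19.4% (18.55 to 20.2) of distal shared ones. Genome windows held these motifs in 15.1% and 9.83% of cases, and distal E18.5-only windows in 12.3% and 10.8%. The homeobox core TAATTA was in 9.10% of distal E15.5-only windows and 5.64% of distal shared ones. Other motifs were more common in distal shared windows. The KLF/SP box GGGCGG was in 12.2% of them (11.5 to 12.9) and 6.20% of distal E15.5-only windows (5.95 to 6.45), and the CTCF core AGGGGGC in 7.97% and 5.75%. The RFX motif GTTGCCA was in 5.44% and 4.00%, and the ETS motif CCGGAAG in 1.90% and 1.13%. The forkhead core TGTTTAC of the printed sites was in 3.46%, 3.38% and 3.66% of distal E15.5-only, shared E15.5 and E18.5-only windows, against 2.96% of genome windows, and the full FOXP1 consensus in 1.07%, 1.10% and 1.06%, against 0.921%. In promoters the KLF/SP box was in 55.7% of shared E15.5 windows and 17.8% of E15.5-only windows, with 34.0% of the 200 bp windows before protein-coding TSSs holding it. Both strands were searched, motifs of different names can overlap, and a match is a string of letters and not a measured site. The classes also differed in the share of G and C bases. Its median was 49% in all E15.5-only windows and 60% in all shared E15.5 windows, promoters included. Distal E15.5-only windows had a median of 48.5% and distal E18.5-only windows 39.5%. The part of base composition in the motif shares was not tested.

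Some of the highest peaks of a single stage followed the coding exons of 1 gene. At E18.5 Foxp2, a forkhead paralogue of Foxp1 made in deep-layer neurons (chr6:14901349-15441977, + strand), had 14 E18.5-only peaks with summits on coding exons, and 16 of its 17 coding exons lay under an E18.5-only peak. Their fold enrichments ran from 11.7 to 32.3 with a median of 22.0, and all were 383 to 525 bp wide. They extended past the exon by a median of 157 bp on the left and 155 bp on the right, with ranges of 141 to 160 bp and 80 to 162 bp over the 14 peaks. None of the 14 E15.5 peaks within Foxp2 touched a coding exon. Dixdc1, a gene of Wnt signalling and neurite growth on chromosome 9, had 6 such peaks at E18.5, on 6 of 22 coding exons, with fold enrichments from 6.296 to 14.5. At E15.5 the pattern was at Cux1, an upper-layer neuron TR gene on chromosome 5 (chr5:136248135-136567490, - strand), where 18 E15.5-only peaks had summits on coding exons, with fold enrichments from 4.05 to 11.1, and no E18.5 summit did.

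Such series of exon peaks were rare. Of 20722 protein-coding genes with coding exons, 4 had summits on at least 4 coding exons at E15.5 (Cux1, Scarf2, Apc2 and Chd7) and 2 at E18.5 (Foxp2 and Dixdc1). Of those at E15.5 only Cux1 had a long series of E15.5-only peaks. Scarf2 had 1 E15.5-only exon peak, Apc2 3 and Chd7 4, with fold enrichments of at most 4.30, 4.05 and 4.56. In Foxp2, Dixdc1 and Cux1 the lists of ARID1B and TCF7L2 had summits on at most 1 coding exon. At Foxp2 the shared promoter peak was at the 68.4th percentile of bound promoters in the E15.5 list and the 50.7th in the E18.5 list. At Dixdc1 it went from the 44.7th to the 80.5th, and at Cux1 from the 37.3rd to the 23.5th. Coverage of these exons in the input libraries was not analysed here, and whether the exon peaks mark binding of FOXP1 was not tested.

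**Figure D3:**
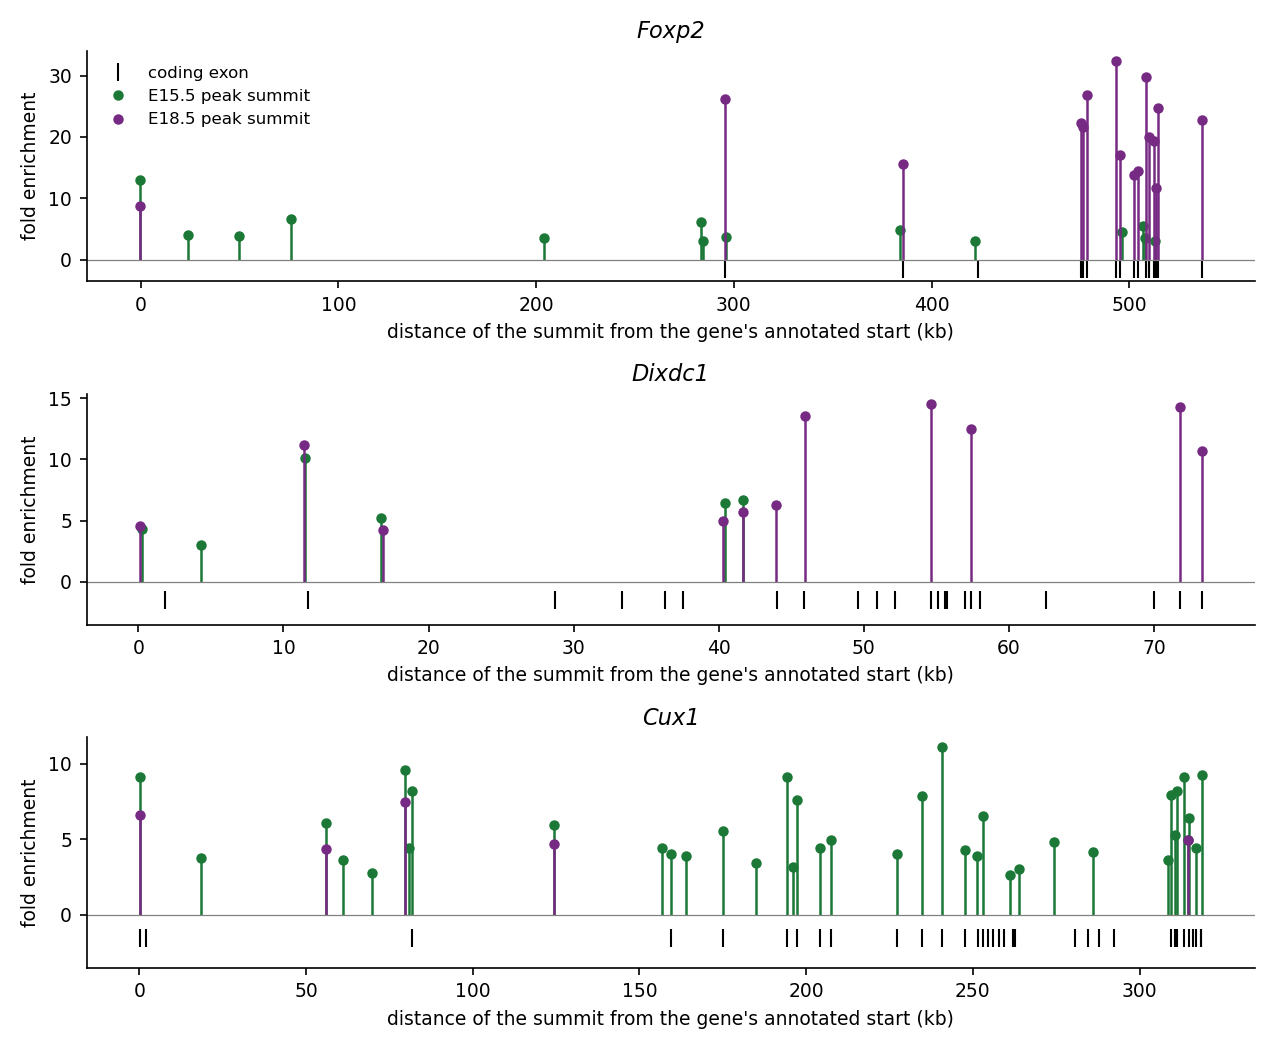
Fold enrichment of every FOXP1 peak summit within Foxp2, Dixdc1 and Cux1 against its distance from the gene's annotated start (kb, in the direction of transcription), with E15.5 in green, E18.5 in purple and coding exons as black ticks; vertical scales differ. E18.5 summits stand over the exons of Foxp2, where they reach 32.3, and of Dixdc1, while in Cux1 the exon summits are of E15.5 and reach 11.1.

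At the level of genes the stages shared most bound promoters. Of 20807 protein-coding genes on chromosomes 1 to 19, 11773 (56.6%) had a FOXP1 promoter peak at both stages, 1410 (6.78%) at E15.5 only and 16 (0.0769%) at E18.5 only. With equal numbers of peaks the stage-only counts were 342 and 404, so the direction of this difference followed the length of the lists. The E15.5-only genes had weak peaks, with a median fold enrichment of 3.92 against 11.4 for the promoter genes of both stages, and 518 of them (36.7%) lay below the lowest ratio of the E18.5 list. Among genes at 10 times the background or more, 8403 of 8442 were bound at both stages.

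Genes bound at only 1 stage included few with a high promoter peak. All 10 of the highest E15.5-only genes (among them Oaz3, Card9, Stap2, Apoh and Dok2) had an E15.5 promoter peak that an E18.5 peak overlapped without reaching their own promoter, as did 152 of the 1410 genes, so their class rested on the width of the peak. Of the genes with no E18.5 peak on that site, the highest were Lgals3, a galectin gene, at 9.87, Fggy, a carbohydrate kinase gene, at 7.97, and the histone gene Hist1h2ad at 7.85. Slc32a1, the vesicular GABA transporter of inhibitory neurons, stood at 7.34 and Rfx4, a TR gene of neural progenitors and cilia, at 7.21. The highest of the 16 E18.5-only genes were Scn11a, a sodium channel gene, at 8.65 and, both at 7.77, the keratin gene Krt1 and Tln2, which encodes an adhesion adaptor. The peaks of Scn11a and Tln2 lay on simple runs, and that of Krt1 overlapped an E15.5 peak that did not reach its promoter, as did 7 of the 16 in all.

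Within the genes bound at both stages, the order of promoters was largely kept, and a small number moved far. Spearman's rho of promoter fold enrichment between the stages was 0.854 over 11773 genes, given as a description since neighbouring genes share peaks. Over site pairs it was 0.888 for 12692 promoter pairs and 0.490 for 8710 distal pairs. The top of the lists was less alike, since 8 of the 100 highest peaks and 455 of the 1000 highest of each list overlapped one another. A gene's percentile is its rank among all bound promoters of that stage. Because the E15.5 list held more weak promoters, the median gene bound at both stages changed by -4.46 percentage points, with quartiles at -13.0 and 3.98. The E15.5-only genes fill the bottom of the E15.5 order, so genes of low rank fall even if their order is kept. Ranks were therefore also set among the 11773 genes of both stages alone, a choice made after the values were seen. On these shared ranks the median change was 0.769 points, 53% of genes rose and 47% fell.

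**Figure D4:**
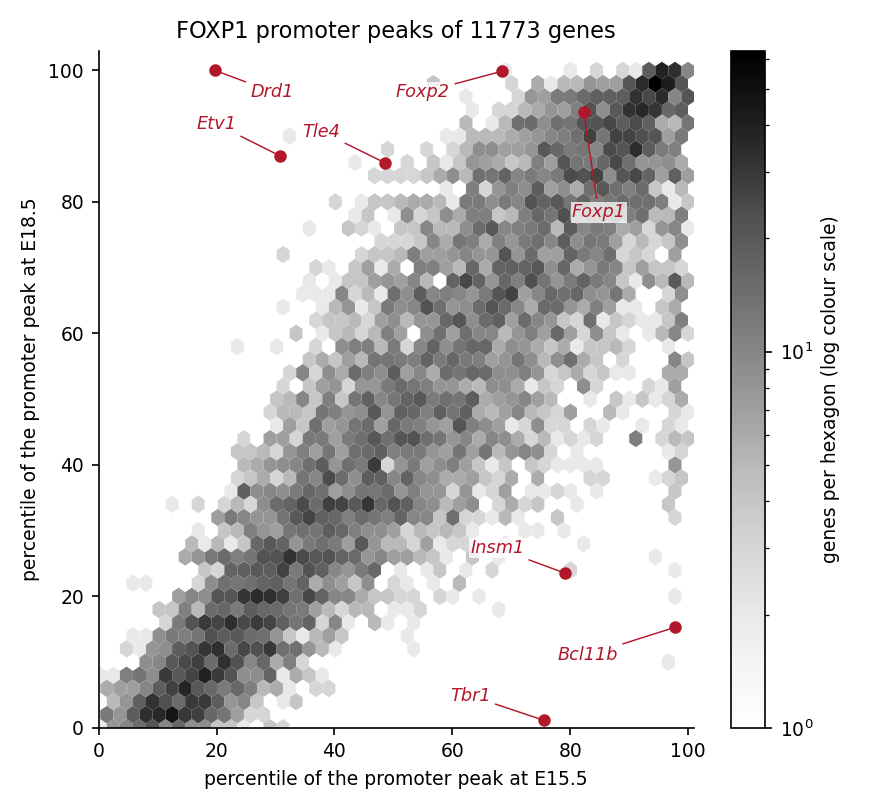
Percentile of the FOXP1 promoter peak at E18.5 against that at E15.5 for 11773 protein-coding genes bound at both stages, as hexagons shaded by the number of genes on a log scale, with 8 genes named in red. Drd1, Etv1 and Tle4 lie above the main band and Bcl11b, Tbr1 and Insm1 far below it; the position of Foxp2 at E18.5 rests on a peak over a coding exon.

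Drd1, the dopamine receptor gene of striatal projection neurons of the direct pathway, rose most. Its promoter peak had a fold enrichment of 6.20 at E15.5, the 19.8th percentile, and of 59.1 at E18.5, where it was the highest peak of the list. The E18.5 peak (chr13:54053741-54056017) had its summit in the 5′ UTR, 433 bp from the TSS, and held 400 reads there. With reads extended to 200 bp and the caller's default of 1 read kept per position and strand, for which the study's methods give no other setting, 400 is the most a base can hold. The fold enrichment of Drd1 at E18.5, and that of Scn2a with 399 reads at E15.5, thus stood at this limit and are lower bounds. Etv1, a TR gene of layer 5 projection neurons, went from the 30.7th to the 87.0th percentile, with fold enrichments of 8.10 and 11.9. Other large rises were at Rfx8 (30.7th to 94.1st), Gstp1, a glutathione transferase gene (33.1st to 90.7th), and the clock gene Cry1 (45.8th to 93.6th). The rise of Foxp2 to the 99.9th percentile came from the exon peaks described above, which also overlap promoters of inner transcripts. The value of Dixdc1 at E18.5, the 97.5th percentile, also rested on such a peak. Its shared promoter peak, however, rose as well, from the 44.7th to the 80.5th.

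Large falls included TR genes of deep-layer neurons. Bcl11b, which specifies subcortical projection neurons and is also made in the striatum, fell from the 97.8th to the 15.3rd percentile, with fold enrichments of 28.98 and 5.71. Tbr1, the TR gene of layer 6 neurons, fell from the 75.6th to the 1.14th. Its E15.5 promoter peak was 5073 bp wide and had its summit in the first coding exon. Housekeeping genes fell as far, such as the checkpoint gene Hus1 (94.9th to 8.48th), Mnat1, a subunit of the CDK-activating kinase (97.4th to 12.6th), and Brf2, an RNA polymerase III factor (97.9th to 19.4th). The large falls were therefore not limited to neuronal genes.

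Some promoters stood near the top of both lists. Lamp1, a lysosomal membrane gene, had fold enrichments of 49.2 and 52.8 and was among the 2 highest at both stages. Scn2a, an autism-associated sodium channel gene, was the highest at E15.5 with 50.6 and stood at 21.7, the 99.8th percentile, at E18.5, where its summit lay in a coding exon. Mfsd1, Amdhd2 and Cwc22 followed Lamp1 at E18.5 with 47.1, 42.2 and 35.4, and had 44.7, 43.0 and 35.9 at E15.5.

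All 5 genes of the autism-associated TRs studied were bound at both stages, against 56.6% of protein-coding genes. Foxp1 itself kept a high promoter peak, with fold enrichments of 14.9 and 13.1 and percentiles of 82.3 and 93.6. Bcl11a went from the 29.9th to the 14.0th percentile, Arid1b from the 33.1st to the 25.1st and Tcf7l2 from the 26.1st to the 20.7th, changes within 16 points, while Tbr1, described above, fell by 74.4 points. The highest promoter peaks of Arid1b at the stages did not overlap, so its change compares different sites. On shared ranks Arid1b changed by -0.32 and Tcf7l2 by 2.85 points, a turn in direction for the latter. Foxp4, the third Foxp gene of the cortex, went from the 62.5th to the 48.6th. Nearest to the 5 TR genes lay 51 distal peaks of E15.5 and 8 of E18.5, a ratio of 0.157 against 0.265 over all protein-coding genes. Foxp1 had 17 and 2, Bcl11a 15 and 1, Arid1b 8 and 1, Tcf7l2 7 and 3, and Tbr1 4 and 1.

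Genes of NuRD, the complex that works with FOXP1, moved in both directions. All 13 were bound at both stages, against 56.6% of all genes, 8 rose in percentile and 5 fell, and the median change was 4.96 points against -4.46 for all genes. Of all genes bound at both stages, 36.4% rose and 63.6% fell. On shared ranks the NuRD median was 6.91, again with 8 genes that rose and 5 that fell, where 53% of all genes rose. Mbd2, a methyl-CpG binding subunit, went from the 51.8th to the 86.0th percentile, Chd4, the main remodelling ATPase of the complex, from the 43.7th to the 72.5th, and Mta3, a scaffold subunit, from the 50.6th to the 12.6th. All 16 genes of a cell cycle list were also bound at both stages (56.6% of all genes), with a median change of -0.510. This value was 3.36 over the 14 genes whose highest peaks at the stages overlapped, and 2.75 on shared ranks.

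Most radial glia genes had lower ranks at E18.5. In this list 10 of 12 genes were bound at both stages (56.6% of all genes) and 9 of the 10 fell (63.6% of all genes of both stages), with a median change of -17.3 points. On shared ranks the same counts held (9 fell, 1 rose), against 47% of all genes that fell, with a median of -9.40. Ptprz1, a receptor phosphatase gene, went from the 54.0th to the 12.6th percentile, Hes5, a Notch effector, from the 35.5th to the 4.95th, and Pax6, the progenitor TR gene, from the 29.1st to the 11.2nd, while Vim, an intermediate filament gene, went from the 26.1st to the 33.0th. Fabp7, a lipid carrier of radial glia, and Tnc, an extracellular matrix gene, were bound at E15.5 only. For intermediate progenitors the median change was -18.6 over 7 genes, of which 5 fell and 2 rose, and -12.0 over the 6 whose highest peaks at the stages overlapped. On shared ranks 4 fell and 3 rose, with a median of -11.1. Eomes, the TR gene that marks them, with Neurog1 and Mfng was bound at E15.5 only, against 6.78% of all genes in that class. Insm1, a TR gene of delaminating progenitors, went from the 79.1st to the 23.5th percentile, although its highest peaks at the stages did not overlap.

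Neuronal lists held genes that moved both ways, and on shared ranks their medians were near that of all genes. Among deep-layer genes the median change was -10.1 over 10 genes, 3 rose and 7 fell, and the members named above, Etv1 with a change of 56.4 and Bcl11b with -82.5, were the extremes. On shared ranks 5 rose and 5 fell, with a median of -1.51. The rise of Foxp2 came from an exon peak, and the highest peaks of the stages overlapped at 6 of the 10 genes. Tle4, a corepressor gene of layer 6, went from the 48.6th to the 86.0th percentile, and Fezf2, the TR gene of subcortical projection neurons, was bound at E15.5 only with a fold enrichment of 6.20. For upper-layer genes the median change was -7.16 over 13 genes, of which 10 fell and 3 rose, and on shared ranks 7 fell and 6 rose, with a median of -0.446. Pou3f2, a POU TR gene, went from the 54.0th to the 25.1st percentile and Cux2, a homeobox TR gene, from the 41.7th to the 46.6th. In the synapse list 24 of 25 genes were bound at both stages, with a median change of -3.25, and 16 fell and 8 rose, against 56.6% bound and 63.6% falling over all genes. On shared ranks 12 fell and 12 rose, with a median of 0.185. Slc17a7, a vesicular glutamate transporter gene, went from the 83.8th to the 61.1st percentile and Rab3a, a vesicle GTPase gene, from the 59.2nd to the 86.0th.

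Many genes of interneurons and of striatal neurons were missing from the E18.5 list, and Drd1, with the highest peak of that list, stood apart from the rest. Of 13 interneuron genes 5 were bound at both stages and 5 at E15.5 only, among them Dlx1 and Dlx5, TR genes of the ganglionic eminences, and Gad2, a GABA-synthesising enzyme gene, and all 5 bound at both stages fell. Over all genes 56.6% were bound at both stages, 63.6% of these fell, and 6.78% were bound at E15.5 only. On shared ranks 3 of the 5 interneuron genes fell and 2 rose, with a median of -3.76. Of 15 striatal genes 6 were bound at both stages and 7 at E15.5 only, and 5 of the 6 had changes between -10.7 and 11.4 points, with Drd1 as the exception. On shared ranks 5 of the 6 rose, with a median of 1.79. The E15.5-only striatal genes, such as Drd2 and Penk, had fold enrichments from 3.29 to 5.19. Of all genes whose E15.5 promoter peak stood 3.99 to 6 times above background, 50.3% were bound at both stages, and of those below this band 64 of 582 were.

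Lists of other cell types that whole cortex can hold varied in how many genes were bound, against 56.6% of all genes at both stages and 6.78% at E15.5 only. In the astrocyte list 8 of 14 genes were bound at both stages and 4 at E15.5 only, including Gfap and Aqp4. For the oligodendrocyte lineage these counts were 2 and 5 of 11. They were 1 and 4 of 12 for endothelial genes, 1 and 2 of 12 for microglial genes and 1 and 3 of 8 for meningeal genes. Csf1r, Cx3cr1 and Cldn5, genes that define microglia and endothelium, had no FOXP1 promoter peak at either stage. Binding at a promoter is not expression, and the part that cell composition has in the changes of rank was not tested.

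**Figure D5:**
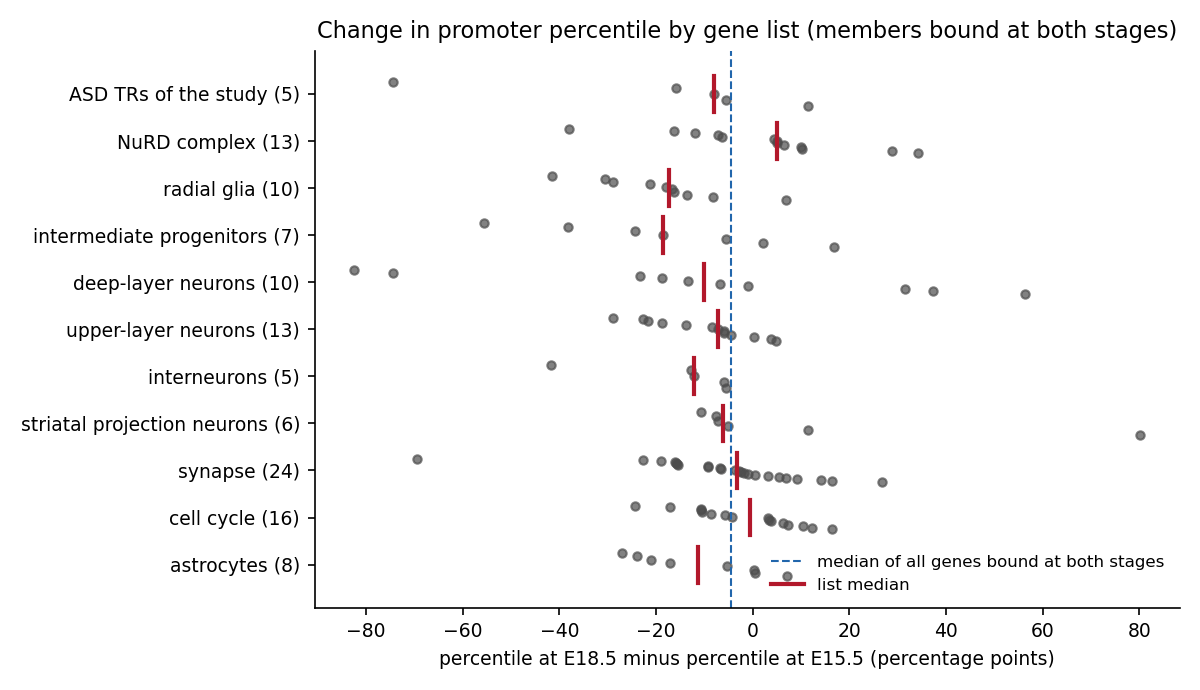
Change in promoter percentile from E15.5 to E18.5 (percentage points) for each gene bound at both stages in the lists with at least 5 such genes (number in brackets), with red bars for list medians and a dashed line for the median of all genes, -4.46. The radial glia and intermediate progenitor medians lie at -17.3 and -18.6 (the latter -12.0 without 1 gene whose peaks did not overlap; -9.40 and -11.1 on shared ranks), the NuRD median at 4.96, and Drd1 is the striatal point farthest to the right.

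Some genes of neuronal identity were among the 10 with the most E15.5-only distal peaks, a count that chose them. By the nearest TSS, Celf2, an RNA-binding protein gene, had 57 distal peaks at E15.5 and 6 at E18.5, Meis2, a TR gene of the striatum and cortex, 40 and 1, and Cux2 35 and 7. Dab1, the reelin adaptor gene, had 33 and 9, and Rbfox1, a splicing factor gene, 41 and 5. Over all protein-coding genes the counts were 22217 and 5895. Among protein-coding genes the most E18.5-only distal peaks nearest to one gene were 3, at Foxp2 and at Ptprd, a receptor phosphatase gene. The 3 at Foxp2 were exon peaks described above. Other distal E18.5-only peaks within Foxp2 were not in this count, since the nearest TSS was that of the gene Gm25470.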

How the data were processed

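FOXP1-bound and input DNA from cortex was sequenced in 2 libraries per stage and kind. Per the submitters' processing notes, tools were BWA 0.7.15, SAMtools, deepTools 3.4.3 and MACS2 2.2.7, on mm10. Per the methods, the authors merged replicates, filtered on mapping quality and called narrow peaks against input with a constant background. The deposited lists give a fold enrichment (a ratio), −log10 p- and q-values and a score for each peak. Reads per summit were recovered from fold and p.

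Overlaps, GENCODE release M21 annotation and GRCm38 sequence were processed in Python 3.11.15 with numpy 2.4.6, pandas 2.3.3 and scipy 1.17.1, with overlap code tested on simulated data. Simple runs had units of at most 4 bases and a length of at least 20. Named genes were the TR and Foxp genes, the 10 most extreme of each class and change, the highest 10 per stage and extremes of 16 gene lists, of which some are not reported here. Members and lists were chosen with earlier results of these data known, and repeats, exon series and peak pairs were examined after values were seen. No test between stages was possible with 1 list each. Peaks on chromosomes X, Y and M and on unplaced sequence were left out.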

Additional observations from a re-analysis of the deposited data

Results flagged for a closer look

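Peaks outside chromosomes 1 to 19 entered none of the comparisons. Chromosome X carried 760 FOXP1 peaks at E15.5 and 338 at E18.5, which stand out only as signal in data left aside. Of these, 42.9% and 98.8% overlapped a peak of the other stage.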

How the results depend on the processing

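With 1 merged list per stage, leaving out a library could not be run, and every value rests on peak calls limited by depth, above all at E18.5. No paired analysis was possible because the replicates of a stage were merged before peaks were called. Of 68 values over 8 results and 10 settings, 40 moved beyond their interval or, for counts, by more than 1.5 times. The order of the E15.5-only and E18.5-only classes turned for promoter shares with equal numbers of peaks and matched summits, and for gene counts with equal numbers. Promoter shares also turned when peaks with coding-exon summits or simple runs were left out of both lists, which changes the classes as described below. Medians of gene lists were also taken on ranks among the genes of both stages alone, chosen after seeing the data. They turned from -4.46 to 0.769 for all genes, from -6.09 to 1.79 for striatal genes, from -3.25 to 0.185 for synapse genes and from -0.510 to 2.75 for cell cycle genes, since the E15.5 order held 1410 genes more that E18.5 lacked. The cause of each other shift below was not tested. The first share in each pair is that of E18.5 peaks on E15.5 peaks and the second that of E15.5 peaks on E18.5 peaks. At −log10 p of at least 15 these were 96.7% and 37.6%, the promoter share of E15.5-only peaks was 27.9%, the rank correlation 0.729, and E15.5-only and E18.5-only genes numbered 2685 and 8. Above the lowest E18.5 ratio they were 93.4% and 51.1%, with promoter shares of 14.3% (E15.5 only) and 13.7% (E18.5 only), a correlation of 0.847, and 892 and 80 genes. With equal numbers of peaks they were 83.6% and 74.9%, with 13.6%, 20.7%, 0.853, and 342 and 404 in the same order. An overlap of 50% of the shorter peak gave 95.8% for E18.5 peaks and an E18.5-only promoter share of 11.1%. Summits within 200 bp gave 79.6% and 30.8%, with promoter shares of 17.6% and 49.3%. Promoters of 1000 bp gave promoter shares of 11.3% and 5.47%, and promoters with 500 bp after the TSS 17.7% and 10.3%. Of the 3 further settings chosen after seeing the data, leaving out Foxp2, Dixdc1, Cux1 and Tbr1 moved no value beyond its interval. Leaving out peaks of the other 2 kinds from both lists also makes E18.5 only those E18.5 peaks whose E15.5 partner was removed (1207 and 545 E18.5-only peaks), which raises their promoter share. Leaving out summits in coding exons gave 94.9% and 33.4%, promoter shares of 15.8% and 26.6%, and 187 E18.5-only genes. Without peaks at simple runs the shares were 97.6% and 33.5%, the promoter shares 15.4% and 28.4%, the correlation 0.866, and E18.5-only genes 72.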
